A study of Mus musculus with 14 samples.

Results

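Gene deserts are long stretches of the genome without protein-coding genes. Of the 67254 accessible regions counted in splenic Tregs, 4811 (7.15%) lay in such stretches, with a midpoint more than 100 kb from every protein-coding transcription start and outside every protein-coding gene body. Starts and gene bodies were those of GENCODE release M21 on GRCm38, and each region is called here by its nearest protein-coding start, which gives its position and does not make that gene its target. ATAC-seq marks open DNA by transposase insertion, and accessibility is given here as CPM, a region's counts per 1000000 counts of its library.

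Accessible regions far from any gene often carry enhancers, stretches of DNA that transcription factors bind and that can act on a distant start. In T cells, the deserts around several transcription factor genes are known to hold such enhancers. cTregs are the resting, recirculating Tregs, and eTregs are the activated Tregs that arise from them. Atg14 is the subunit that directs the lipid kinase Vps34 to autophagy.

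Of the 14 libraries, 3 were of control and 4 of Atg14-deficient cTregs, and likewise 3 of control and 4 of Atg14-deficient eTregs. Controls were Foxp3CreAtg14+/fl and carried a single floxed allele, whereas Atg14-deficient cells were Foxp3CreAtg14fl/fl. In both genotypes, Cre was driven by Foxp3 and so acted in Tregs. CD45.2+ BM of either genotype was mixed in equal parts with CD45.1+ WT BM. The mixture was given to sublethally irradiated Rag1-/- hosts, which have no mature T or B cells of their own, and left for 6 to 8 weeks. The sorted splenic cells were CD45.2+ CD4+ Foxp3-YFP+ and were gated on CD44 and a further surface marker, with cTregs as CD44- and eTregs as CD44+ in the labels and as CD44 low and CD44 high in the methods. All strains were on the C57BL/6 background, mice of both sexes were used, and the methods give a general range of ages for the strain, with controls matched for age and sex, but no age for these chimeras.

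Total counts were between 2242983 and 5548189 per library, and libraries of a group differed from each other by more than sampling noise in every pair. The labels were checked at promoters, defined as regions within 1 kb of a start. The cTreg markers Ccr7, Tcf7 and S1pr1 fell in control eTregs by 1.44, 1.96 and 1.14 on the log2 scale and Lef1 did not pass the threshold, whereas no region was listed within 1 kb of the starts of the Treg markers Foxp3 and Cd4. Of the 4 Treg markers with a promoter region, Ctla4, which encodes an inhibitory receptor of activated Tregs, fell in control eTregs (log2 fold change of -0.56, adjusted p = 0.0497), and Il2ra (0.08), Cd3e (-0.33) and Ikzf2 (-0.48) did not pass the threshold. None of the 5 eTreg markers passed the threshold in control cells, where Klrg1 had a log2 fold change of 1.56 (adjusted p = 0.305) and Icos, just outside it, one of -0.69 (adjusted p = 0.05). Of 5 B cell and 5 myeloid markers, 2 of each had a promoter region, at 0.779 to 17.3 CPM in the libraries. Of the CD8 T cell markers, Cd8b1 had one, at 16.1 CPM in control cTregs and 4.35 CPM in control eTregs (log2 fold change of -1.92, adjusted p = 0.00471), and Cd8a had none. At the promoter of Atg14 itself, accessibility was 19.8 to 35.2 CPM in control and 16.8 to 29.3 CPM in Atg14-deficient libraries, and this region was not examined as a measure of the deletion.

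The sequences below are the central 300 bases of the regions on which the comparisons turn, read from the GRCm38 reference sequence of RefSeq. Capitals mark each match, on either strand, to the AP-1 pattern TGANTCA, the RUNX pattern TGTGGTT, the ETS pattern ACAGGAAG or the TCF/LEF pattern ATCAAAG. AP-1 is the dimer of Fos and Jun proteins that T cell activation brings in, RUNX and ETS factors are broadly active in T cells, and TCF/LEF factors are linked to the resting state. A match is a run of letters and no measurement of binding. The first 2 regions were among the 3 of smallest p that were more accessible in control eTregs than in control cTregs with no overlap between the states, and both held an AP-1 match.
Slc17a6 region, chr7:51724008-51724307, plus strand: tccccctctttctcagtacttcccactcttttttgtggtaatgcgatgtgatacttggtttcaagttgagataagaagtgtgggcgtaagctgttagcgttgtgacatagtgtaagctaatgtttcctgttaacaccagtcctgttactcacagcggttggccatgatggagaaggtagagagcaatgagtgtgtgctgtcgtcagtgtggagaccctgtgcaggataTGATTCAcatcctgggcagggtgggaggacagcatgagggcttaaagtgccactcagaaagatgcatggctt
Rasa1 region, chr13:85398844-85399143, plus strand: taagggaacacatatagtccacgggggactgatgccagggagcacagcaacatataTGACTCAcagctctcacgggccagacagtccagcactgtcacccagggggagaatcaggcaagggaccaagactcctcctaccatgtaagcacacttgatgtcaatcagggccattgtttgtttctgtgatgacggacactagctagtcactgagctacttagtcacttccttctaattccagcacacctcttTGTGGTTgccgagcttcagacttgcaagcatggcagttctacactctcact

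The next 3 were chosen in the same way among the regions less accessible in control eTregs. No AP-1 match was found in them, while the region near Adamts20 held a RUNX match and the region near Enc1 a TCF/LEF match.
Adamts20 region, chr15:94255112-94255411, plus strand: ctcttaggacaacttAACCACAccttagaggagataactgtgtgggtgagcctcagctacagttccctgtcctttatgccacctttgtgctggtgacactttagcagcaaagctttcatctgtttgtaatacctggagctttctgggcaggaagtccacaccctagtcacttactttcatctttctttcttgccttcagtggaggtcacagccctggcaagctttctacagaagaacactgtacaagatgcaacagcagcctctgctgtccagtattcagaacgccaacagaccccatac
Enc1 region, chr13:97406688-97406987, plus strand: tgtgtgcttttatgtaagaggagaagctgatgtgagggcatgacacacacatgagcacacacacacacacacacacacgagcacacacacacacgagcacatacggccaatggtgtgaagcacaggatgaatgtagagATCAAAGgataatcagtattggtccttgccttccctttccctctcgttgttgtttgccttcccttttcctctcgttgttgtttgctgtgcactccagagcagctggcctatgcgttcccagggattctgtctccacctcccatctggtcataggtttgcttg
Tnfaip3 region, chr10:19117009-19117308, plus strand: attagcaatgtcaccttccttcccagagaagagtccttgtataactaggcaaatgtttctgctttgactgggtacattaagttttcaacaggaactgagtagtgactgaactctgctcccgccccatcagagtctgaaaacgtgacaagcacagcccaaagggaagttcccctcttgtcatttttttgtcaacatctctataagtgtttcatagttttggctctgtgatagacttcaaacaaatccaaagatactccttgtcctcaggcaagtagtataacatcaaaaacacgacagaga

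The last is the only gene-desert region that passed the adjusted threshold between the genotypes, in eTregs. It held 1 AP-1 and 1 ETS match.
Basp1 region, chr15:25269653-25269952, plus strand: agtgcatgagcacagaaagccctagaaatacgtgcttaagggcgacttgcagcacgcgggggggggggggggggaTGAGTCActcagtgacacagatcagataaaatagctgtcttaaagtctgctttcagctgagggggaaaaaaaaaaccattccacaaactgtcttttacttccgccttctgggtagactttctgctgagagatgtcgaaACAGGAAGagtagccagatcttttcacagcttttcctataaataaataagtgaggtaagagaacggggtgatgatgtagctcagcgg

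The 4811 regions were spread over 901 deserts, of which 306 held a single region and 131 held 10 or more. Those 131 deserts together held 2723 regions (56.6%). The distance to the nearest protein-coding start had a median of 183.8 kb, with quartiles at 132.6 and 284.2 kb, and reached 1805.2 kb at a region near Cntnap5b on chromosome 1. That region was accessible in every library, at 2.68 to 12.2 CPM, and its state and genotype differences did not pass the threshold. At the edge of the rule, the 446 regions at 100 to 110 kb had a median of 4.09 CPM and the 525 intergenic regions at 90 to 100 kb had a median of 4.28 CPM.

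No protein-coding gene does not mean no gene. The midpoints of 998 of the 4811 regions (20.7%) lay in the body of a long non-coding RNA gene, 52 lay in a pseudogene or small RNA gene, and 29 in a gene segment of an antigen receptor, since the annotation does not list those segments as protein-coding. A total of 176 regions lay inside the antigen receptor loci. With genes of every biotype in the rule, 451 regions remained. With RefSeq genes in place of GENCODE, 4850 regions were found, of which 4501 were shared.

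The gene-desert regions were about as long as other distal regions and less accessible. Their median length was 304 bp, against 306 bp for intergenic regions within 100 kb of a start, 303 bp for regions in gene bodies and 516 bp for promoters. Their median accessibility was 12.5 CPM per kb, against 15.1, 14.4 and 38.9 CPM per kb in those classes. Their GC content had a median of 45.9%, the lowest of the 4 classes (48% intergenic, 47.6% in gene bodies and 61.9% at promoters), and repeats covered a median of 10.1% of their bases. These are descriptions of single regions of the same libraries, and they were not tested.

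Motif matches were counted in the central 200 bases on both strands. In the gene-desert regions, 16.4% held AP-1, 14.1% RUNX, 11.1% ETS and 5.76% TCF/LEF. Over all regions on chromosomes the shares were 11.6%, 10.2%, 8% and 3.83%, in the same order. In intergenic regions within 100 kb of a start they were 13.2%, 11.3%, 8.45% and 4.28%. Regions in gene bodies had 13.6%, 12.3%, 9.6% and 4.45%. Promoters, which are among all regions, had 4.13%, 3.39%, 3.22% and 1.38%, so that these other distal classes lay nearer to the gene deserts. The KLF/SP pattern GGGCGTG was in 1.5% of the gene-desert regions and 4.07% of all regions, the FOX pattern TGTTTAC in 3.72% and 3.03%, and the E-box pattern CAGCTG in 12.9% of both. KLF/SP was in 2.65% of intergenic regions within 100 kb, 2.44% of regions in gene bodies and 10% of promoters. The CTCF core motif was in 5.38% of gene-desert and 5.09% of all regions, but in 7.82% of the intergenic regions nearer to genes. None of these patterns contains another, although their matches can overlap.

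The most accessible gene-desert regions per kb had no called difference between groups. The first, near Zfp960 on chromosome 17, had 299 CPM per kb over the 14 libraries, followed by a region near Pcmtd1 on chromosome 1 (239 CPM per kb), a region near Smim15 (213), a region near Zfp97 (211) and a region near Mettl4 (205). Of these 5, only the region near Pcmtd1 was far from genes in RefSeq as well. The region near Pcmtd1 had 250 to 389 CPM in control cTregs, 222 to 329 CPM in Atg14-deficient cTregs, 205 to 291 CPM in control eTregs and 197 to 245 CPM in Atg14-deficient eTregs. The groups compared overlapped there. None of the 5 regions passed the threshold in any comparison, which asked for both an adjusted p under 0.05 and a change of over 0.5 on the log2 scale.

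Control eTregs were then compared with control cTregs, which asks where accessibility far from genes differs with the state of the cell. A total of 4146 of the 4811 regions had enough counts for edgeR's filter, and 334 of these (8.06%) passed the adjusted threshold, against 5.3% of all 61366 regions tested. Less accessible regions were the larger part, with 219 lower in eTregs (5.28%, background 3.29%) and 115 higher (2.77%, background 2.01%). The split was 214 lower and 180 higher without control cTreg replicate 2 and 205 lower and 152 higher with loess offsets. The called differences were large, with a median size of 1.68 on the log2 scale for lower and 1.72 for higher regions. Over all 4146, the median log2 fold change was -0.02, against -0.01 for all regions tested, and it was 0.01 to 0.03 under TMM, DESeq2's size factors and loess offsets. In bulk samples, fewer cells in which a region is open and less opening per cell cannot be told apart. The count changed as single libraries were left out. It was 126, 394 and 172 without control cTreg replicates 1, 2 and 3, and 160, 173 and 229 without control eTreg replicates 1, 2 and 3. Leaving a library out also shrinks its group, so that a lower count is not ascribed to that library. With same-numbered eTreg and cTreg libraries taken as a block it was 660.

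**Figure D1:**
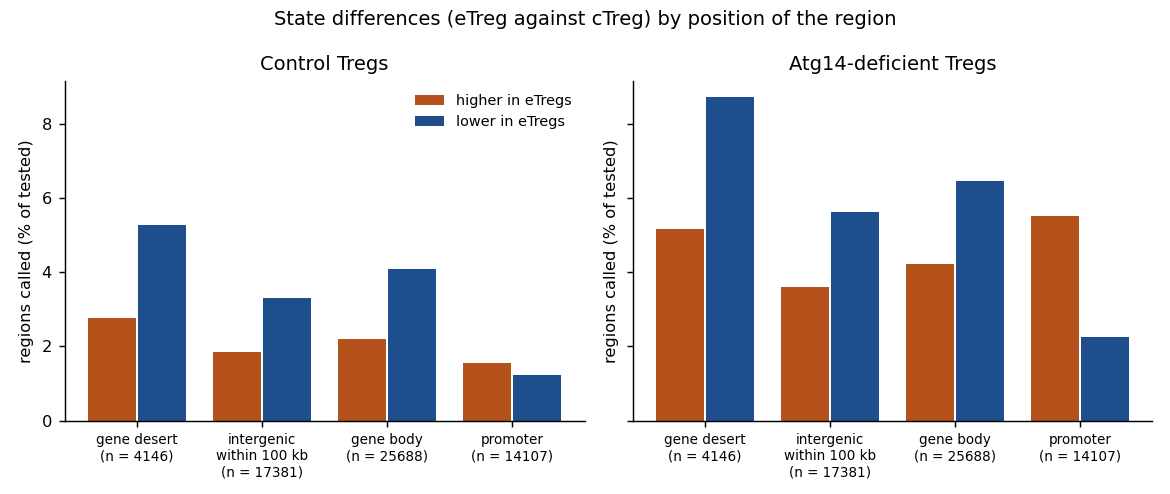
Regions called between eTregs and cTregs, as a percentage of the tested regions of each class (y axis), in control (left) and Atg14-deficient Tregs (right). Bars in orange are higher in eTregs and bars in blue lower. Gene deserts had the tallest blue bar in both genotypes, at 5.28% and 8.71%, and promoters the shortest, at 1.24% and 2.25%.

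Of the called regions, 65.6% were lower in control eTregs in gene deserts, 64% in intergenic regions nearer to genes, 64.8% in gene bodies and 44.4% at promoters. The depth of a region bears on whether it is called. Among regions with a mean of 20 to 50 counts per library, 7.24% of the gene-desert and 4.16% of all other tested regions were lower, and 3.4% and 2.56% were higher. Among regions with at least 100 counts, the shares were 12.9% and 2.73% lower, and 9.09% and 2.51% higher. Below a mean of 10 counts, 1.98% of the gene-desert and 1.26% of the other regions were lower, and 0.539% and 0.668% were higher. The other regions include the promoters, and no test of the classes against each other was made.

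The region 120.4 kb from Cpeb2, which encodes a regulator of translation, had 11.7, 15.8 and 11.6 CPM in control cTregs and 42.3, 52.5 and 44 CPM in control eTregs. It had 13.4, 15.6, 13.1 and 29.2 CPM in Atg14-deficient cTregs and 47.3, 34.3, 45 and 50.1 CPM in Atg14-deficient eTregs. All eTreg libraries were above all cTreg libraries in both genotypes, and the log2 fold change was 1.81 ± 0.25 (SE) in control (adjusted p = 0.000136) and 1.31 ± 0.21 in Atg14-deficient cells (adjusted p = 0.000352). The region 102.2 kb from Slc17a6, which encodes a vesicular glutamate transporter, had 38.1, 43.1 and 28.5 CPM in control cTregs and 126, 113 and 125 CPM in control eTregs. It was the most accessible of the regions named for a rise, with a log2 fold change of 1.71 ± 0.24 in control (adjusted p = 0.00045) and 1.73 ± 0.22 in Atg14-deficient cells (adjusted p = 0.000125), and it was not a gene-desert region by RefSeq genes. The region 109.9 kb from Rasa1, which encodes a GTPase-activating protein for Ras, had 5.38, 5.74 and 8.03 CPM in control cTregs and 26.7, 21.8 and 20.7 CPM in control eTregs. Its log2 fold change was 1.88 ± 0.30 in control (adjusted p = 0.00055) and 0.99 ± 0.26 in Atg14-deficient cells (adjusted p = 0.0147), and the difference between these, -0.89 ± 0.40, had an adjusted p of 1. Further rises in control eTregs were at regions near Cdkn2b, which encodes an inhibitor of cell cycle kinases (log2 fold change of 1.60 ± 0.26, adjusted p = 0.00066), and near Fgf9, which encodes a fibroblast growth factor (3.07 ± 0.52, adjusted p = 0.000808).

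**Figure D2:**
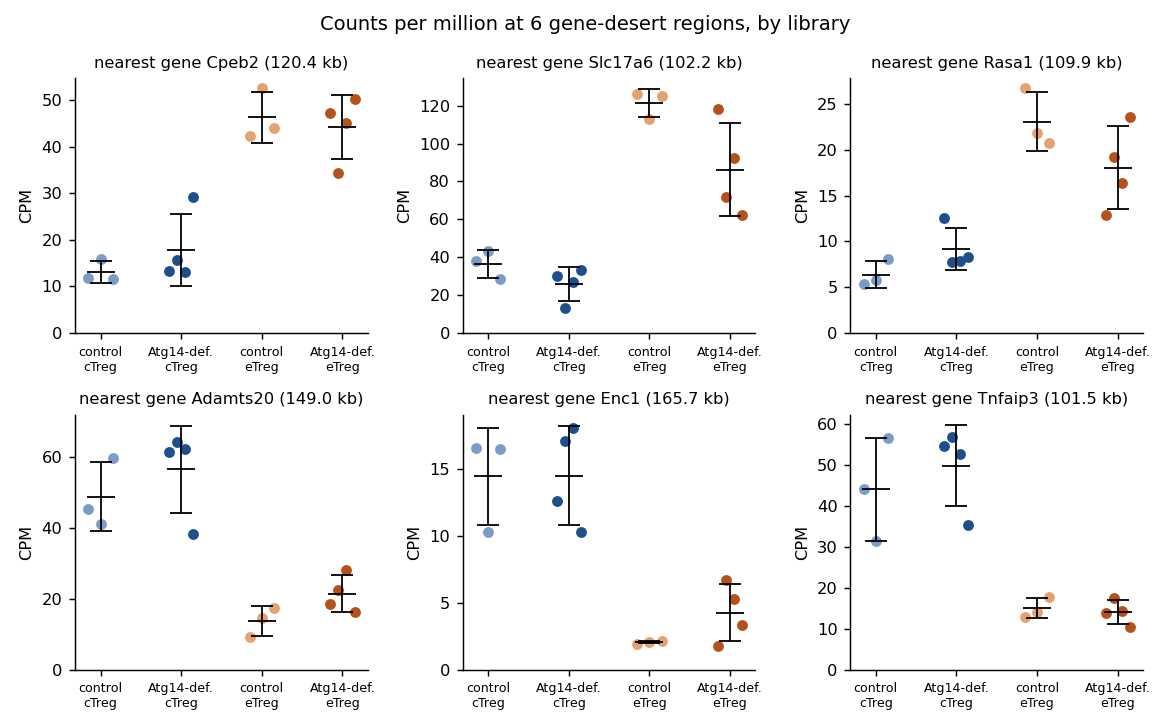
CPM (y axis, from 0) at 6 gene-desert regions in the 4 groups (x axis), each point being a library, with the mean and SD as black bars. In the upper row (Cpeb2, Slc17a6, Rasa1) all control eTreg libraries lie above all control cTreg libraries, and in the lower row (Adamts20, Enc1, Tnfaip3) all lie below.

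The regions that fell showed the opposite order. The region 149.0 kb from Adamts20, which encodes a secreted protease, had 45.2, 41.2 and 59.7 CPM in control cTregs and 9.11, 14.7 and 17.3 CPM in control eTregs (log2 fold change of -1.78 ± 0.24, adjusted p = 0.000136). It was not a gene-desert region by RefSeq genes. The region 165.7 kb from Enc1, which encodes an actin-binding protein, had 16.6, 10.3 and 16.5 CPM in control cTregs and 1.95, 2.1 and 2.16 CPM in control eTregs (-2.77 ± 0.42, adjusted p = 0.000293). The region 101.5 kb from Tnfaip3, which encodes A20, an enzyme that restrains NF-κB signalling, had 44.2, 31.4 and 56.6 CPM in control cTregs and 13, 14.2 and 17.7 CPM in control eTregs (-1.53 ± 0.24, adjusted p = 0.000362). All 3 were also lower in Atg14-deficient eTregs, with log2 fold changes of -1.40 ± 0.21, -1.79 ± 0.34 and -1.84 ± 0.21 and adjusted p of 0.00014, 0.00146 and 1.1e-05.

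The region 344.9 kb from Satb1, which encodes a chromatin organizer of T cells, was almost closed in eTregs. It had 8.31, 6.22 and 6.69 CPM in control cTregs and 0.651, 0.525 and 0.721 CPM in control eTregs, and 8.35 to 15.2 CPM in Atg14-deficient cTregs against 0.599 to 2.51 CPM in Atg14-deficient eTregs. The states did not overlap in either genotype, and the log2 fold change was -3.40 ± 0.53 in control (adjusted p = 0.000401) and -3.28 ± 0.42 in Atg14-deficient cells (adjusted p = 3.3e-05). A region 190.3 kb from Usp25, inside the non-coding gene 1700041M19Rik, had 10.3, 2.39 and 4.9 CPM in control cTregs and no count in any control eTreg library. With a floor of 3 counts over the control eTreg group, it was 24.8-fold lower in control eTregs (adjusted p = 0.000438). In Atg14-deficient eTregs it had 0.599, 2.51, 1.06 and 1.54 CPM, 5.57-fold more than in control eTregs over the same floor. This difference had an adjusted p of 0.266.

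The same comparison was made in Atg14-deficient cells. Of the 4146 tested regions, 575 (13.9%) differed between Atg14-deficient eTregs and cTregs, against 9.81% of all regions tested. Of these, 361 were lower in eTregs (8.71%, background 5.4%) and 214 higher (5.16%, background 4.41%). With same-numbered eTreg and cTreg libraries taken as a single mouse and as a block, 874 regions passed. Without Atg14-deficient cTreg replicate 3 the count was 269, without Atg14-deficient eTreg replicate 1 it was 356, and without Atg14-deficient eTreg replicate 4 it was 342. The groups hold 4 libraries here and 3 in controls, so that the counts of the genotypes are not to be compared.

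Both genotypes moved the same way. The 2 state comparisons share no library, and of the 334 regions called in control cells 332 had the same sign in Atg14-deficient cells, 218 of them past the threshold (146 lower and 72 higher). These 218 were 65.3% of the control calls and 37.9% of the Atg14-deficient calls, and 62.3% of the control calls were shared in this way over all regions. Of the 575 regions called in Atg14-deficient cells, 566 had the same sign in control cells. No region was called in opposite directions.

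**Figure D3:**
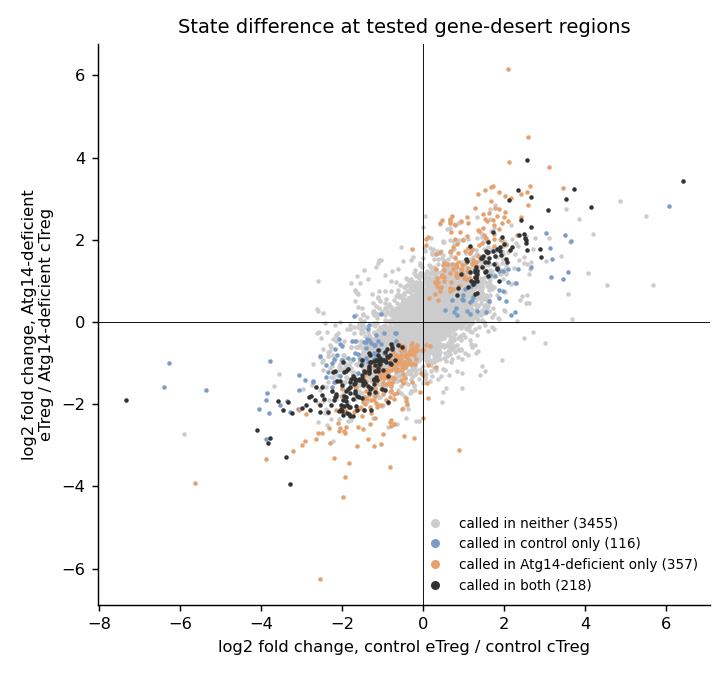
State difference at the 4146 tested gene-desert regions as the log2 fold change of eTregs over cTregs, in control (x axis) and Atg14-deficient cells (y axis). The 218 regions called in both (black) all lie in the lower left or the upper right quadrant.

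All 10 regions named in the Atg14-deficient comparison were called in the same direction in controls, with sizes that differed. The smallest p among falls, besides that of the region near Tnfaip3, was at a region 401.5 kb from Mc2r, which encodes the receptor for corticotropin, where Atg14-deficient cells had 26.9, 21, 27.3 and 19.9 CPM in cTregs and 4.79, 6.69, 7.41 and 5.65 CPM in eTregs (log2 fold change of -1.95 ± 0.24, adjusted p = 2.06e-05). In controls it fell by 0.87 ± 0.26 (adjusted p = 0.0426), from 19.1 to 24.4 CPM down to 11.5 to 11.9 CPM. The difference between these falls was -1.09 ± 0.35 (unadjusted p = 0.00436, adjusted p = 1), and Atg14-deficient eTregs lay below control eTregs without overlap (log2 fold change of -0.93 ± 0.26, adjusted p = 0.334). The region 238.9 kb from Nfkbiz, which encodes a nuclear regulator of NF-κB, fell by 2.29 ± 0.29 in Atg14-deficient cells (adjusted p = 2.19e-05) and by 1.80 ± 0.32 in controls (adjusted p = 0.0013). The region 116.8 kb from Prickle1, which encodes a protein of planar cell polarity, lay in the non-coding gene Gm41386 and fell by 1.00 ± 0.13 (adjusted p = 4.83e-05) and by 0.83 ± 0.16 (adjusted p = 0.0023).

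Rises in Atg14-deficient eTregs were led by a region 113.1 kb from Ccn2, which encodes a matrix-associated growth factor. It had 7.56, 3.89, 4.21 and 7.07 CPM in Atg14-deficient cTregs and 22.8, 29.3, 28.3 and 23.1 CPM in Atg14-deficient eTregs, so that the states stood apart (log2 fold change of 2.19 ± 0.28, adjusted p = 3.3e-05). The control value was 1.72 ± 0.31 (adjusted p = 0.0013). A region 337.1 kb from Acvr2a, which encodes an activin receptor, held 3 AP-1 matches and a RUNX match in its central 200 bases, and rose by 1.85 ± 0.27 (adjusted p = 0.000142) in Atg14-deficient and by 1.15 ± 0.29 (adjusted p = 0.0182) in control eTregs, a difference of 0.70 ± 0.40 (unadjusted p = 0.0901, adjusted p = 1). A region 328.8 kb from Gtdc1 rose by 3.20 ± 0.50 (adjusted p = 0.000245) and by 2.34 ± 0.47 (adjusted p = 0.00358).

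The sequence content of the called regions differed with direction. AP-1 was in 43.5% of the 115 regions higher in control eTregs and in 8.68% of the 219 lower ones, against 16.4% of all gene-desert regions. TCF/LEF was in 4.35% of the higher and 12.8% of the lower regions, ETS in 8.7% and 16.9%, and RUNX in 22.6% and 18.3%. In the Atg14-deficient comparison AP-1 was in 35% of the higher and 11.6% of the lower regions, and TCF/LEF in 6.54% and 10.8%. Outside the deserts, AP-1 was in 26.5% of the 1109 regions higher and 9.03% of the 1795 regions lower in control eTregs. The share over all regions outside the deserts, promoters included, was 11.3%, below the 16.4% of the gene deserts. The CTCF core was in 0.87% of the higher and 1.37% of the lower gene-desert regions. GC content was alike in both directions, at a median of 45% and 45.4%. These shares were not tested.

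Deserts differed in how their regions moved, and their shares of called regions stand beside 8.06% of all tested gene-desert regions in control and 13.9% in Atg14-deficient cells. Of 184 deserts with a call in control cells, 94 had lower calls only, 74 higher calls only and 16 both. A desert with a single call cannot hold both directions, and the median desert held 2 regions, so that this split says little about deserts. In the desert between Gm11361 and Sox4, which encodes a transcription factor of lymphocyte development, 9 of 28 tested regions were lower in control eTregs and 16 in Atg14-deficient eTregs (32.1% and 57.1% called), and none was higher. The summed accessibility of its 32 regions was 424 ± 38.3 CPM (SD, n = 3) in control cTregs, 463 ± 58.5 CPM (n = 4) in Atg14-deficient cTregs, 232 ± 21.7 CPM (n = 3) in control eTregs and 230 ± 39.4 CPM (n = 4) in Atg14-deficient eTregs. In the desert between Satb1 and Kcnh8, 10 of 33 tested regions were lower and 1 was higher in control eTregs, and 12 were lower and none higher in Atg14-deficient eTregs (33.3% and 36.4% called). The sum there was 329 ± 23.2 CPM in control cTregs and 231 ± 21.9 CPM in control eTregs, and the 2 groups did not overlap. In the desert between Tox, which encodes a nuclear factor of T cell development, and Car8, 7 of 39 tested regions were lower and none higher in control eTregs, and 6 were lower and 2 higher in Atg14-deficient eTregs (17.9% and 20.5% called).

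In the desert between Myc, which encodes a transcription factor of growth, and Gsdmc, 1 of 45 tested regions was higher and 1 lower in control eTregs, and 2 were higher and 5 lower in Atg14-deficient eTregs (4.44% and 15.6% called). Its highest region, 182.2 kb from Myc inside the non-coding gene Pvt1, had 56.2 to 77.5 CPM in control cTregs and 62.7 to 79.3 CPM in control eTregs. Between Id2, which encodes an inhibitor of E proteins, and Rnf144a, 2 of 46 tested regions were higher and 1 lower in control (6.52%), and 3 were higher and 1 lower in Atg14-deficient eTregs (8.7%). Of the 49 regions between Vrk1 and 3110018I06Rik, 39 were tested, with 1 lower call in control (2.56%) and none in Atg14-deficient cells. Between Celf2 and Gata3, which encodes a T cell transcription factor, 3 of 42 tested regions were lower in control and 6 in Atg14-deficient eTregs (7.14% and 14.3%), with no higher call. Between Nmbr and Cited2, 1 of 24 was higher in control and 5 in Atg14-deficient eTregs (4.17% and 20.8%), with no lower call, and the median log2 fold changes were 0.64 and 0.59.

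**Figure D4:**
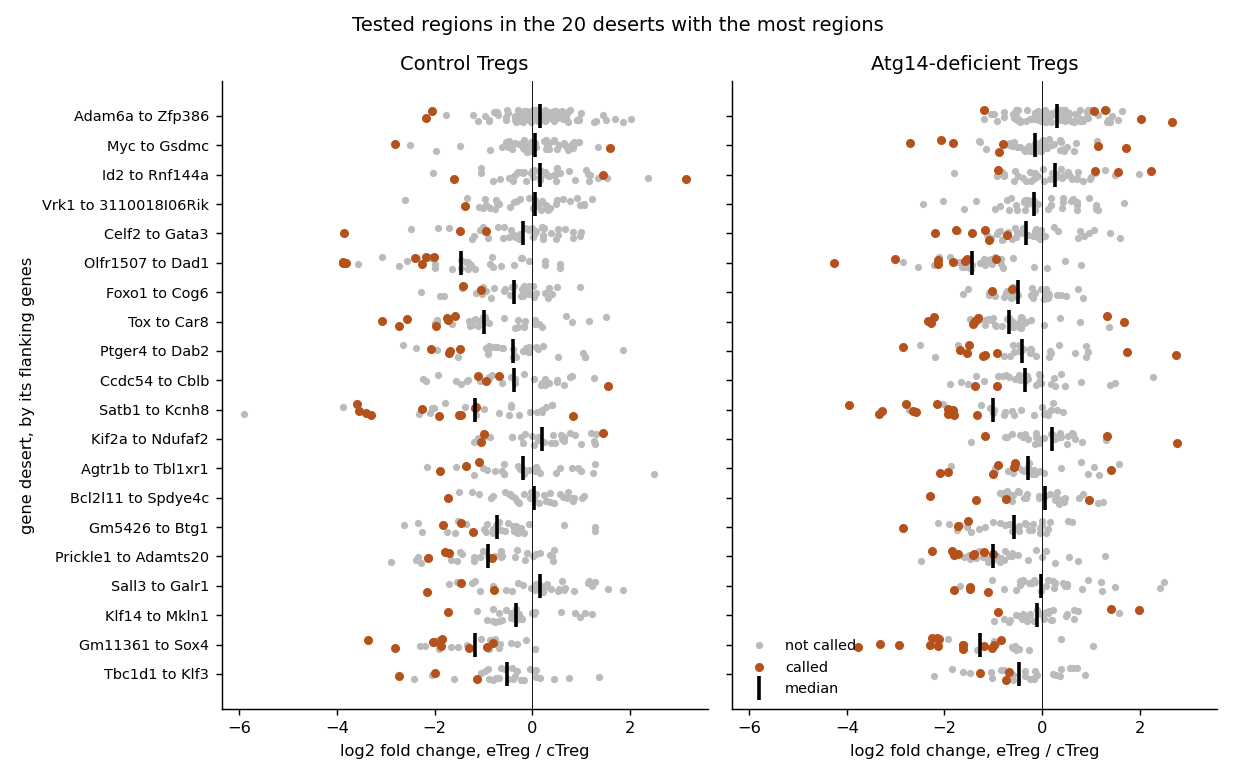
Log2 fold change of eTregs over cTregs (x axis) at each tested region of the 20 deserts with the most regions (y axis, named by flanking genes), in control (left) and Atg14-deficient cells (right). Orange points passed the adjusted threshold and black ticks are medians. The medians of the deserts of Olfr1507 to Dad1, Satb1 to Kcnh8 and Gm11361 to Sox4 are at -1 or below in both panels.

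Regions were also grouped by lists of nearest genes. Of 67 T cell transcription factor genes, 37 were the nearest gene of 478 regions, and of the 419 tested 35 were lower (8.35%) and 9 higher (2.15%) in control eTregs, with a median log2 fold change of -0.23. Over all gene-desert regions these shares were 5.28% and 2.77%, over all regions 3.29% and 2.01%, and the medians were -0.02 and -0.01. In Atg14-deficient cells 54 were lower (12.9%) and 20 higher (4.77%), against 8.71% and 5.16% of all gene-desert regions and 5.4% and 4.41% of all regions. Near Sox4, 7 of 17 tested regions were lower in control and 13 in Atg14-deficient eTregs, near Tox 7 and 6 of 25, and near Klf3, a transcription factor of quiescence, 3 and 2 of 14. Near Runx1 1 and 4 of 14 were lower. The 9 higher calls in control were near Jun (2) and near Satb1, Id2, Ets2, Myc, Zeb2, Prdm1, which encodes Blimp-1 of effector lymphocytes, and Ikzf2, which encodes Helios of Tregs (1 each). The 20 in Atg14-deficient cells were near Maf (3), near Prdm1, Ikzf2, Id2, Myc, Zeb2 and Hlx (2 each), and near Bach2, Ets1, Ets2, Klf4 and Tcf4 (1 each).

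The list of signalling and survival genes had lower calls almost alone. Of 150 tested regions near 15 of its 33 genes, 15 were lower (10%) and none higher in control eTregs (median log2 fold change of -0.49), and 22 were lower (14.7%) and 1 higher (0.667%) in Atg14-deficient eTregs, where the same shares of all gene-desert regions apply as for the previous list. They included 4 and 6 of 24 regions near Btg1, which encodes an antiproliferative protein, and 2 and 5 of 10 near Tnfaip3. Near Bcl2l11, which encodes the death-promoting protein Bim, 1 and 3 of 11 were lower, and near the phosphatase genes Dusp4 2 and 4 of 17 and Dusp6 2 and 1 of 11. Of 116 tested regions near 13 of 65 genes for surface receptors and cytokines, 7 were lower (6.03%) and none higher in control eTregs, and 10 lower (8.62%) and 3 higher (2.59%) in Atg14-deficient eTregs, so that the lower shares were near the 5.28% and 8.71% of all gene-desert regions. None of 7 regions near 4 of 10 B cell and myeloid regulator genes was called in either genotype.

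The antigen receptor loci held 176 of the gene-desert regions. In the Tcra and Tcrd locus on chromosome 14, between Olfr1507 and Dad1, accessibility was much lower in eTregs. Summed over its 44 regions it was 177, 124 and 184 CPM in control cTregs and 60.5, 67.7 and 74.6 CPM in control eTregs. In Atg14-deficient cells it was 190, 243, 224 and 162 CPM in cTregs and 78.5, 98.3, 96.6 and 84.8 CPM in eTregs. Every eTreg library was below every cTreg library, and 7 of 36 tested regions in control and 8 in Atg14-deficient cells were called, all lower (19.4% and 22.2%, against 8.06% and 13.9% of all tested gene-desert regions). The median log2 fold change of these 36 was -1.47 and -1.45. The promoter of Cd8b1 moved in the same direction, and its part in this result was not tested.

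The Igh locus on chromosome 12, where B cells assemble their heavy chain, held 110 gene-desert regions, 109 of them in the desert with the most regions of all. Of its 100 tested regions, none was higher and 2 were lower in control eTregs, and 4 were higher and 1 lower in Atg14-deficient eTregs. In its desert 2.02% and 5.05% of the tested regions were called, against 8.06% and 13.9% of all tested gene-desert regions. Summed over the 110 regions, accessibility was 601 ± 5.26 CPM in control cTregs, 641 ± 58 CPM in Atg14-deficient cTregs, 658 ± 75.2 CPM in control eTregs and 768 ± 80.2 CPM in Atg14-deficient eTregs. Its highest region, inside the segment Ighv1-47, had 28.5 to 53.6 CPM in control cTregs and 38.6 to 44.6 CPM in control eTregs. Of the B cell markers, Pax5 had 9.32 CPM in control cTregs and 12.1 CPM in control eTregs at its promoter and Ebf1 9.73 and 8.42 CPM, and the others had no promoter region. Without all antigen receptor loci, 325 regions were called in control (115 higher and 210 lower) and 561 in Atg14-deficient cells (209 and 352).

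Atg14-deficient and control cells were compared within each state, which asks what the loss of Atg14 changes. In eTregs, 1 of the 4146 regions passed the adjusted threshold, against 0.0228% of all regions tested (14 regions). It lay 143.9 kb from Basp1, which encodes a membrane-bound signalling protein, and had 103, 93.7 and 98.4 CPM in control eTregs and 56, 57.7, 55.6 and 48 CPM in Atg14-deficient eTregs. In cTregs it had 99.2, 83.1 and 77.6 CPM in control and 74.3, 89.5, 87.3 and 76.5 CPM in Atg14-deficient libraries. The genotypes stood apart in eTregs and overlapped in cTregs, with log2 fold changes of -0.86 ± 0.12 (adjusted p = 0.00134) and -0.08 ± 0.12 (adjusted p = 1). The difference between these, the interaction, was -0.77 ± 0.18 with an unadjusted p of 0.000142 and an adjusted p of 1. Between the states, the region fell in Atg14-deficient eTregs by 0.60 ± 0.12 (adjusted p = 0.00201), and its value in control cells was 0.18 ± 0.13 (adjusted p = 0.491).

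A second region, 1826 bp away, was past the unadjusted threshold in the same direction. It had 26, 24.9 and 12.3 CPM in control eTregs and 7.79, 5.86, 5.82 and 8.22 CPM in Atg14-deficient eTregs (log2 fold change of -1.58 ± 0.33, adjusted p = 0.0966). In cTregs it had 4.64, 8.14 and 4.46 CPM in control and 1.68, 3.11, 3.16 and 3.21 CPM in Atg14-deficient cells (-1.04 ± 0.40, adjusted p = 1), and the genotypes did not overlap in either state. Its adjusted p in eTregs was 0.0492 with TMM, 0.0457 with loess offsets, 0.00988 in DESeq2 and 0.0403 without control eTreg replicate 3, and over all alternatives it ran from 0.00988 to 0.666. It was also higher in eTregs than in cTregs, by 1.83 ± 0.36 in control (adjusted p = 0.00309) and by 1.28 ± 0.37 in Atg14-deficient cells (adjusted p = 0.0247).

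**Figure D5:**
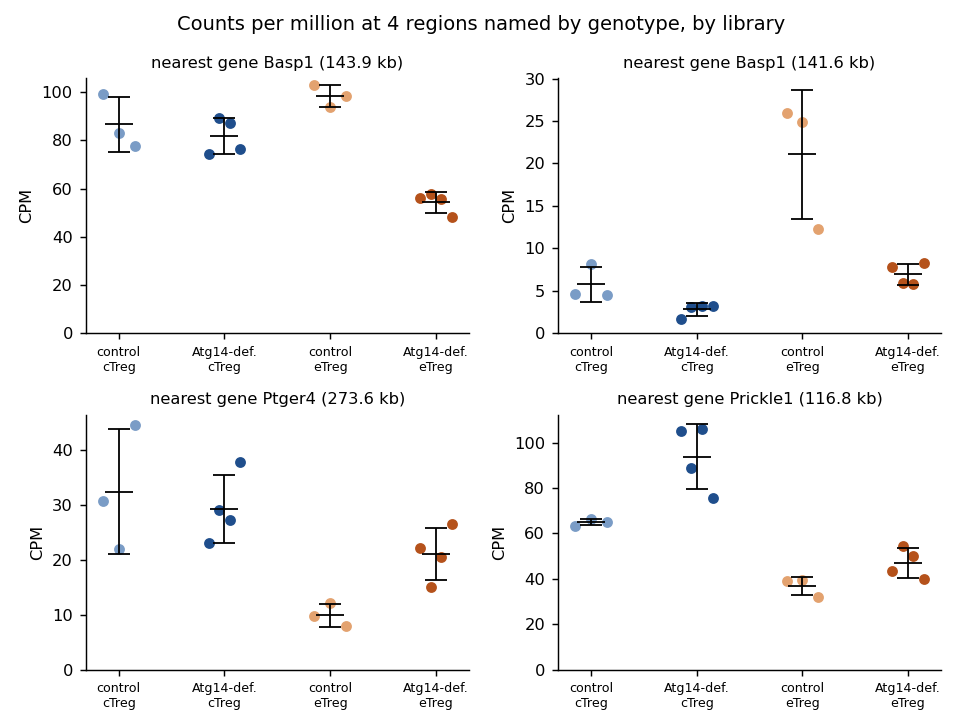
CPM (y axis, from 0) at 4 gene-desert regions named by their genotype difference, in the 4 groups (x axis), each point being a library, with the mean and SD as black bars. At the first region near Basp1 the Atg14-deficient eTregs, at 48 to 57.7 CPM, lie below all other libraries.

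Other genotype differences in eTregs did not pass the adjusted threshold. At unadjusted p below 0.05, 177 regions were higher (4.27%, background 4.59%) and 116 lower (2.8%, background 1.77%) in Atg14-deficient eTregs. The split depended on the scaling, with 141 higher and 165 lower under TMM and 130 higher and 181 lower under loess offsets. The region 273.6 kb from Ptger4, which encodes a receptor for prostaglandin E2, had 9.76, 12.1 and 7.93 CPM in control and 22.2, 15.1, 20.6 and 26.5 CPM in Atg14-deficient eTregs (log2 fold change of 1.11 ± 0.27, adjusted p = 0.25). It had 22 to 44.6 CPM in control cTregs and was lower in control eTregs by 1.70 ± 0.28 (adjusted p = 0.000562), whereas the state difference in Atg14-deficient cells was -0.47 ± 0.23 (adjusted p = 0.186), and the interaction of 1.23 ± 0.36 had an adjusted p of 1. A region near Cdc5l, which encodes a splicing factor, had no count in control eTregs and 0.837 to 1.8 CPM in Atg14-deficient eTregs. Over a floor of 3 counts in the control group this was 6.19-fold more (adjusted p = 0.292).

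In cTregs, no gene-desert region passed the adjusted threshold in edgeR or in DESeq2, and 10 of all regions did in edgeR. At unadjusted p below 0.05, 126 regions were higher (3.04%, background 1.99%) and 62 lower (1.5%, background 1.35%) in Atg14-deficient cTregs, and with loess offsets the numbers were 105 and 81. Single libraries decided this split, which was 92 higher and 99 lower without control cTreg replicate 3, 210 and 44 without control cTreg replicate 2, and 126 and 116 without Atg14-deficient cTreg replicate 4. The region near Prickle1 had 63.5, 66.3 and 65.1 CPM in control and 105, 88.8, 106 and 75.8 CPM in Atg14-deficient cTregs, with no overlap (log2 fold change of 0.53 ± 0.14, unadjusted p = 0.000917, adjusted p = 1). Further regions with the smallest p and no overlap were 743.3 kb from Myc (0.92 ± 0.25), 172.1 kb from Bcl6, which encodes a repressor of follicular T cells (1.13 ± 0.34), near Slc24a2, which encodes an ion exchanger (1.62 ± 0.49), and near Ptpru, which encodes a receptor phosphatase (-2.75 ± 0.82), each with an adjusted p of 1. The regions near Myc, Bcl6 and Ptpru lay in non-coding genes, namely Gm41333, Gm32126 and Gm16080.

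No interaction between genotype and state passed the adjusted threshold in edgeR or DESeq2, and 145 regions (3.5%, background 3.05%) passed the unadjusted one, 70 in the higher and 75 in the lower direction. With loess offsets the split was 57 and 96, and with the mouse as a block 237 regions passed (102 and 135). It was 70 and 130 without control cTreg replicate 2 and 111 and 79 without Atg14-deficient cTreg replicate 4, so that no direction is read from it. The named regions of smallest p were those near Basp1 and Usp25 and a region 130.9 kb from Zfp808, which was not a gene-desert region by RefSeq genes.

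The gene-desert regions took a small share of each library. It was 3.77 ± 0.24% (SD, n = 3) in control cTregs, 3.98 ± 0.14% (n = 4) in Atg14-deficient cTregs, 3.7 ± 0.08% (n = 3) in control eTregs and 3.71 ± 0.17% (n = 4) in Atg14-deficient eTregs. The single libraries spanned 3.49% to 4.17%, and the groups overlapped in each of the comparisons made above. In same-numbered Atg14-deficient libraries it was lower in eTregs each time (3.98% and 3.91%, 3.82% and 3.55%, 4.17% and 3.77%, 3.96% and 3.59%). Among controls it was lower in eTregs in replicates 1 and 2 and higher in replicate 3 (3.49% and 3.62%). These pairs were not tested. Promoters took 51.4% to 57.9% of the counts.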

How the data were processed

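Nucleosome-free ATAC-seq read counts were deposited as raw whole numbers, without normalization, for 67254 merged regions in 14 libraries. Per the methods, the authors trimmed, aligned and de-duplicated reads, shifted read ends for the transposase, selected short fragments, called peaks per library with MACS2, kept a peak where 50% or more of a genotype's replicates had it, merged the peaks and counted with bedtools. The methods name mm9 and the submitters' processing notes name mm10 and GRCm38. All 67207 regions on chromosomes lay within GRCm38, and 47.7% of 54327 coding starts had a region within 200 bp (4.18% after a shift of 20000 bp), so that GRCm38 was used. A value was even in 82% of cases, which leaves fewer independent fragments than counts.

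The deposited counts were fitted with edgeR 4.0.16 under R 4.3.3, using total-count scaling, edgeR's low-count filter and 1 robust quasi-likelihood fit of the 4 group means over all regions. The spread between libraries was 25.6% (biological coefficient of variation). A called region had a Benjamini-Hochberg adjusted p under 0.05 and changed by over 0.5 on the log2 scale. CPM are counts per 1000000 of a library's total, and a group without counts was given a floor of 3 counts. Most values were even, so that a fold over this floor is no lower bound. DESeq2 1.42.0, Python 3.11.15, pandas 2.3.3 and SciPy 1.17.1 served for alternatives and summaries. Total counts (2242983 to 5548189) and a median of 16.6 counts per tested gene-desert region limit the precision. The study gives 3 control and 4 Atg14-deficient chimera mice as the source of both states, and which eTreg and cTreg libraries share a mouse is not stated in the sources used here. In Atg14-deficient cells, same-numbered eTreg and cTreg libraries deviated together (correlations of 0.119, 0.243, 0.14 and 0.225) and were treated as pairs in an alternative fit with the mouse as a block, while all log2 fold changes, SEs and p-values given without that remark come from the fit without pairs.

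The regions, gene lists and tests were chosen with earlier results of these data known. Named regions are, per state comparison, the 5 higher and 5 lower of smallest adjusted p without overlap of the states, per genotype comparison all called regions or the 5 of smallest p without overlap, the 3 of smallest interaction p, the 5 of highest CPM per kb, the top region of the 5 deserts with most regions, and the farthest region. Marker promoters, gene lists and motifs were fixed lists, and 1 marker and 1 sequence are not reported here. The 47 scaffold regions were kept in the table that was fitted and were never counted as gene-desert regions.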

Additional observations from a re-analysis of the deposited data

Results flagged for a closer look

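In groups of 4, a library was set against the others by Dixon's test for 74 combinations of a named region or the share of counts with a group, and 5 stood apart, where chance gives about 1 in 20. All 5 were in Atg14-deficient cTregs. Replicate 4 had 29.2 CPM at the region near Cpeb2 (the others 13.1 to 15.6 CPM) and 38.2 CPM at the region near Adamts20 (the others 61.3 to 64.2 CPM), in both cases toward the eTreg values. Replicate 1 had 12.6 CPM at the region near Rasa1 (the others 7.79 to 8.35 CPM) and 1.68 CPM at the second region near Basp1 (the others 3.11 to 3.21 CPM). Replicate 2 had 52.2 CPM at the region near Myc inside Pvt1 (the others 82.6 to 87.4 CPM).

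At a region near Zfp808 on chromosome 13, every Atg14-deficient library was below every control library in eTregs (7.53 to 8.99 against 12.9 to 15.1 CPM) and above in cTregs (11 to 17.1 against 7.18 to 9.78 CPM). The interaction in edgeR's quasi-likelihood test was -1.44 ± 0.39 on the log2 scale, with an unadjusted p of 0.000874 and an adjusted p of 1.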

How the results depend on the processing

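Every region named by a comparison kept its direction in that comparison under every alternative in which it was tested. A total of 721 values were on the same side of the threshold and 4 newly past it, all at the second region near Basp1. These regions were picked for small p, and the count does not cover their other comparisons or the regions named by accessibility, desert or distance. Main counts were 334 (state, control), 575 (state, Atg14-deficient), 1 called and 293 unadjusted (genotype, eTregs), 0 and 188 (genotype, cTregs), and 0 and 145 (interaction). Leaving out 1 library at a time gave 126 to 394, 269 to 681, 1 to 2 and 247 to 362, 0 and 150 to 254, and 0 and 133 to 200. With at least 10 counts in every library, which leaves 1234 tested, counts were 160, 270, 120 unadjusted, 52 and 55. Regions over 50 kb from a start gave 583, 979, 3 and 535, 1 and 327, and 259, those over 200 kb 151, 239, 0 and 124, 85 and 56, and with genes of every biotype 32, 71, 0 and 19, 16 and 8. The called count in eTregs was 2 with TMM, loess offsets and DESeq2. The share of counts was 7.57%, 7.89%, 7.44% and 7.38% (control cTregs, Atg14-deficient cTregs, control eTregs, Atg14-deficient eTregs) over 50 kb, 1.52%, 1.61%, 1.48% and 1.48% over 200 kb, and 0.31%, 0.321%, 0.305% and 0.301% with every biotype. Without a library it was 3.69% to 3.9%, 3.92% to 4.04%, 3.66% to 3.74% and 3.64% to 3.76%.

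With the mouse as a block, chosen after seeing the data, the state counts were 660 and 874 and the interaction 237. In controls, same-numbered eTreg and cTreg libraries correlated at 0.0543, 0.209 and 0.19, so that the block there rests on a number only. Control and Atg14-deficient libraries of the same number correlated at -0.217 to 0.0914 and share only a number, and the replicate block over these gave 399, 617, 1 and 302, 0 and 211, and 0 and 166. Depth limits calls, since 1113 of the 4146 tested regions had a mean of under 10 counts.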

Other observations

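Chromosome 12 held the most gene-desert regions (448 of 3036 regions, 14.8%), followed by chromosome 13 (413 of 3238, 12.8%). The Igh locus holds 110 of those on chromosome 12. The shares of called regions by distance were not tested. At 500 to 1000 kb from a start, 2 of 269 tested regions were higher and 19 lower in control eTregs (0.743% and 7.06%), against 41 and 61 of 1426 (2.88% and 4.28%) at 100 to 150 kb. In Atg14-deficient eTregs, 16 were higher and 30 lower at 500 to 1000 kb (5.95% and 11.2%), against 80 and 113 (5.61% and 7.92%) at 100 to 150 kb. Beyond 1000 kb, 1 of 71 was higher and none lower in control, and 4 were higher and 1 lower in Atg14-deficient eTregs.

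On chromosome 14, 39 tested regions lay within 10 Mb of Atg14, a window chosen after the values were seen. In Atg14-deficient cells, 7 of them were higher and 1 lower in eTregs (20.5% past the unadjusted threshold), and 5 were higher and none lower in cTregs (12.8%). On the rest of chromosome 14 these shares were 6% and 2.67%, and on other chromosomes 6.97% and 4.52%. The Tcra and Tcrd locus, which starts 4.86 Mb from Atg14, held 36 tested regions in this window. All regions of the window past the unadjusted threshold lay in it, with 7 higher and 1 lower in eTregs and 5 higher in cTregs. The shares of the window thus describe this locus. In cTregs, its summed accessibility had a mean of 162 CPM in control (SD 32.9, n = 3) and 205 CPM in Atg14-deficient libraries (SD 36, n = 4), and in eTregs of 67.6 CPM (SD 7.06) and 89.5 CPM (SD 9.52). Every Atg14-deficient eTreg library was above every control eTreg library, while the cTreg groups overlapped.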
